A study of Mus musculus with 12 samples.

Results

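Neutrophil extracellular traps (NETs) are webs of decondensed chromatin and granule proteins that neutrophils release, and 10 genes for the enzymes and granule proteins of these webs were followed here in mouse mammary glands. They are the peptidylarginine deiminases Padi1, Padi2, Padi3 and Padi4, the granule serine proteases Prtn3, Elane and Ctsg, the peroxidase Mpo and the secondary granule proteins Camp and Ngp, chosen by gene name from the 54532 genes of the deposited table. All 10 were found there, and 3 of them (Padi2, Padi4 and Prtn3) passed the filter on low values used for testing, which asks that 4 or more of the 12 libraries reach 1 FPKM. FPKM is a count of fragments scaled to gene length and to library size.

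Total RNA was from mammary glands with hyperplasia, taken from FVB/N females of the MIC model, in the groups MIC Stat3 ko, MIC Chi3l1 ko and MIC WT, with 4 libraries each. Every group drank doxycycline at 2 mg/ml, and 2 wk is the time in the titles. In the MIC model this drug induces the polyoma middle T oncogene, with Cre recombinase, in mammary epithelial cells, so the WT glands carry the oncogene as well. A gene removed by that Cre remains intact in the other cells of the gland. Neither the knockout alleles nor the age of the mice is in the labels, and nothing says that the 4 samples of a group are separate animals, so p-values cover only the spread between those samples. Libraries are called Stat3 ko 1 to 4, Chi3l1 ko 1 to 4 and WT 1 to 4.

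The libraries held 16217143 to 22607123 gene counts. Stat3 was at 15.8 ± 3.04 FPKM in Stat3 ko, 50.01 ± 2.67 FPKM in Chi3l1 ko and 48.0 ± 1.93 FPKM in WT (SD, n = 4 each), and Chil1, the mouse gene of Chi3l1, averaged 11.7 FPKM in Stat3 ko, 0.0117 FPKM in Chi3l1 ko and 151 FPKM in WT. Mitochondrially encoded genes took over 2% of the counts in 3 libraries, at 4.79% and 3.37% (Stat3 ko 1 and 2) and 2.22% (Chi3l1 ko 2). Epithelial content was read from 10 genes expressed in mammary epithelium, which other epithelia also express, so the mammary label itself was not checked. Their summed level ran from 1212 to 2958 FPKM in Stat3 ko, from 2179 to 2941 FPKM in Chi3l1 ko and from 2368 to 3512 FPKM in WT.

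Peptidylarginine deiminases convert arginine in proteins to citrulline. In neutrophils PAD4, the product of Padi4, citrullinates histones and loosens chromatin before a NET is released, and neutrophil elastase and myeloperoxidase reach the nucleus from the granules in the same process. The granule proteins of neutrophils are made mostly in the bone marrow: transcripts for the azurophil granule (Mpo, Elane, Prtn3, Ctsg) belong to early precursors, those for secondary granules (Camp, Ngp) to later ones, and mature neutrophils in tissue carry the proteins with little of these mRNAs. In the mammary gland Padi2 is known from the epithelium.

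The Padi genes lie side by side on chromosome 4 of GRCm38, the build of the files. In order along the chromosome they are Padi4 (140745865 to 140774236, minus strand), Padi3 (140785365 to 140810648, minus), Padi1 (140812983 to 140845778, minus) and Padi2 (140906344 to 140952586, plus). The fifth member of the family, Padi6, lies 3222 bases from Padi4. Prtn3 (79874476 to 79883174, plus) and Elane (79886247 to 79888215, plus) are neighbours on chromosome 10, with 3073 bases between them. Mpo is on chromosome 11 (87793581 to 87804413, plus), Ctsg on chromosome 14 (56099881 to 56102574, minus), and Camp (109847379 to 109849617, minus) and Ngp (110419747 to 110423012, plus) are on chromosome 9.

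The 4 azurophil granule genes share a sequence feature that their choice did not use. The letters GAGGAA, the core of the PU box bound by the myeloid factor PU.1, stood on either strand in the 250 bases before the RefSeq start of Prtn3, Elane, Mpo and Ctsg, and in none of those of the 4 Padi genes, Camp or Ngp. Of all 32851 promoters of the table, 23.3% held these letters in the same window. The STAT-type motif TTCNNNGAA was in 7.02% of all promoters and among the members in that of Ctsg alone, 189 bases before the start. The C/EBP-type motif TTGCNNAAT was in 2.11% of all promoters and in none of the members' windows. No GAGGAA match overlapped a TTCNNNGAA match. GAGGAA was picked after the sequences were read, and a match describes letters in a window, not binding. The reference is of another mouse strain than FVB/N. The sequences below are the RefSeq GRCm38.p6 reference, on the gene's strand and cut off where an annotated exon begins, and show the azurophil genes beside Padi4, with GAGGAA and TTCNNNGAA matches in capitals. They cover chr4:140774237-140774453 (minus), chr10:79879417-79879613 (plus), chr10:79886062-79886246 (plus), chr11:87793534-87793580 (plus) and chr14:56102575-56102824 (minus).
Padi4: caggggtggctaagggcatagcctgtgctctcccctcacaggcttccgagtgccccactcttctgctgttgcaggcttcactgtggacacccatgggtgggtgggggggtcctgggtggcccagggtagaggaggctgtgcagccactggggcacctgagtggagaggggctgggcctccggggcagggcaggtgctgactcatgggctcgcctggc
Prtn3: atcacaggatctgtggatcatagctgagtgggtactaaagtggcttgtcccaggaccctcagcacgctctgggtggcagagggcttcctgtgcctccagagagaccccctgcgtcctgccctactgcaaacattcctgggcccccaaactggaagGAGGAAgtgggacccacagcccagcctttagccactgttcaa
Elane: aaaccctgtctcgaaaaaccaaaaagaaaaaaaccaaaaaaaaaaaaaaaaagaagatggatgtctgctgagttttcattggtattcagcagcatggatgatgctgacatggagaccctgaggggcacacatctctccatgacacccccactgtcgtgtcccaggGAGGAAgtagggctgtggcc
Mpo: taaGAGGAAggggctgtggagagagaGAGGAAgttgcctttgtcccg
Ctsg: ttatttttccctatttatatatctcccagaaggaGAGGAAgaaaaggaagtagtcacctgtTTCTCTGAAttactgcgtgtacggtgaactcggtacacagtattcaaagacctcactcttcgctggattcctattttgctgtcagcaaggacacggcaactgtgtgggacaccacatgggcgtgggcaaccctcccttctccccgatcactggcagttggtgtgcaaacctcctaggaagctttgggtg

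Among the deiminases, Padi2 had the highest mean level per length in each group. In WT the order of mean FPKM was Padi2 (7.997 ± 2.62), Padi4 (4.07 ± 0.470), Padi3 (0.832 ± 0.236) and Padi1 (0.586 ± 0.0964; SD, n = 4 each). In WT the ranges of Padi2 and Padi4 did not overlap, nor did those of Padi4 and Padi3, while those of Padi3 and Padi1 did. Padi6, the egg and early embryo member, had 1 count in 1 WT library and 0 in the other 11 libraries.

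Padi4 was lowest in Stat3 ko, intermediate in Chi3l1 ko and highest in WT. It had 0.310, 1.08, 2.06 and 1.98 FPKM in Stat3 ko 1 to 4, from 25 to 209 counts. In Chi3l1 ko it had 2.75, 2.66, 2.42 and 2.99 FPKM, and in WT 4.38, 3.53, 3.82 and 4.54 FPKM. None of the 3 groups overlapped with another, and within Stat3 ko the values of 0.310 and 1.08 FPKM lay under those of 1.98 and 2.06 FPKM. The Stat3 ko mean was 33.4% of the WT mean and the Chi3l1 ko mean 66.4% of it. Of the 13643 genes that pass the filter, 14 (0.103%) had this order with no overlap at either step.

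Of the 3 members tested, Padi4 and Prtn3 fell in Stat3 ko against WT, beside 14.0% of all tested genes called in that comparison (5.61% higher and 8.39% lower). The share was 18.0% by edgeR (1644 genes higher and 1311 lower), 21.7% by DESeq2, 3.67% by limma with no filter and 3.71% by limma on the compared groups only. The test was limma on log2(FPKM + 1) with Benjamini-Hochberg adjustment over all 13643 genes, called at an adjusted p under 0.05. Padi4 fell by 1.18 ± 0.23 (log2, SE; adjusted p = 0.00988), and 11.6% of tested genes were lower in Stat3 ko without overlap. Without the 3 libraries over 2% mitochondrial counts the difference was smaller, at -0.74 (adjusted p = 0.00667). That fit keeps only Stat3 ko 3 and Stat3 ko 4 of the Stat3 ko group, whose Padi4 values lie close together. In a fit of Stat3 ko and WT alone the adjusted p was 0.0533, which ends the call. In the authors' deposited table Padi4 had a log2 fold change of -1.60 with an adjusted p of 0.0101.

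Padi4 in Chi3l1 ko against WT did not pass the test in the fit across all groups. Its difference was -0.45 ± 0.23 (log2, SE), with an unadjusted p of 0.0733 and an adjusted p of 1.0 by limma. The shared spread per gene in that fit includes the wide Stat3 ko group, and in a limma fit of Chi3l1 ko and WT alone the SE was 0.0882 and the adjusted p 0.71. The authors' deposited table listed Padi4 with a log2 fold change of -0.58 and an adjusted p of 0.0169 for this comparison. Whether Chi3l1 ko lowered Padi4 thus depends on the test, while no library of one group reached the range of the other, a pattern that 1.36% of tested genes showed in the direction of lower Chi3l1 ko values.

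Between the knockouts, the ranges of Padi4 did not overlap, beside 10.2% of tested genes that were lower in Stat3 ko without overlap. The difference for Stat3 ko against Chi3l1 ko did not pass the threshold, at -0.73 ± 0.23 (log2, SE, limma adjusted p = 0.0571). Leaving out Stat3 ko 3 gave an adjusted p of 0.0322 and leaving out Stat3 ko 4 gave 0.0248, both past the threshold. Without the 3 libraries over 2% mitochondrial counts, which again keeps only Stat3 ko 3 and Stat3 ko 4 of that group, the difference was -0.30 (adjusted p = 0.139). Both knockout comparisons against WT use the same WT libraries.

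**Figure D1:**
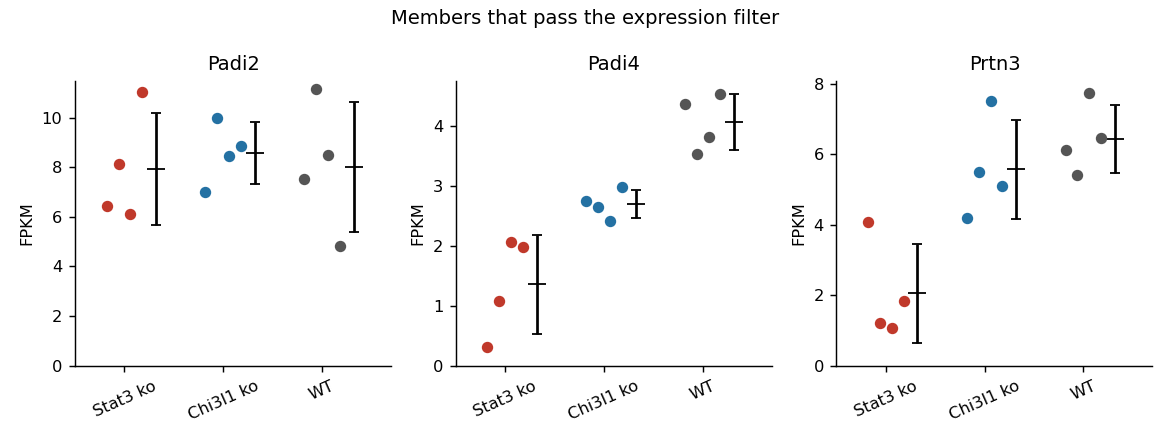
FPKM of Padi2, Padi4 and Prtn3 in each library (points), with the mean and SD of 4 libraries beside each group (dash and bars). Padi4 lies at 0.310 to 2.06 FPKM in Stat3 ko, 2.42 to 2.99 FPKM in Chi3l1 ko and 3.53 to 4.54 FPKM in WT, while the groups overlap for Padi2.

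The epithelial content of the Stat3 ko libraries differed widely, and Padi4 differed with it. The summed level of the 10 epithelial genes was 1212, 1391, 2670 and 2958 FPKM in Stat3 ko 1 to 4, and Stat3 ko 1 and Stat3 ko 2, which had the lowest sums, had the lowest Padi4. In bulk tissue fewer cells of a type and less RNA per cell cannot be told apart. Per 1000 FPKM of the epithelial genes, Padi4 stood at 0.256, 0.774, 0.771 and 0.670 in Stat3 ko, at 0.870 to 1.22 in Chi3l1 ko and at 1.29 to 1.52 in WT. On this scale, chosen after the data were seen, the 3 groups again did not overlap. The share of all genes with that pattern on this scale was not computed. The 10 epithelial genes behind the scale had a median log2 difference of -0.80 in Stat3 ko against WT, with 1 called lower by limma. Over the 12 libraries the gene most like Padi4 was Slc7a5, a transporter of large neutral amino acids (Pearson r = 0.974, and 0.980 within the groups), followed by Slc30a2, a zinc transporter (0.964 and 0.983), and B4galt3, a galactosyltransferase (0.961 and 0.949). Genes in these libraries share their depth and their mixture of cells. Slc7a5 averaged 22.9 ± 13.1 FPKM in Stat3 ko, 64.9 ± 11.8 FPKM in Chi3l1 ko and 81.1 ± 9.16 FPKM in WT (SD, n = 4 each). The 7 defining neutrophil markers summed to 3.16 to 11.5 FPKM in Stat3 ko, 8.0002 to 11.8 FPKM in Chi3l1 ko and 7.53 to 13.5 FPKM in WT, and Ly6g was at 0 in 10 of the 12 libraries. The part of cell content in the Padi4 result was not tested.

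**Figure D2:**
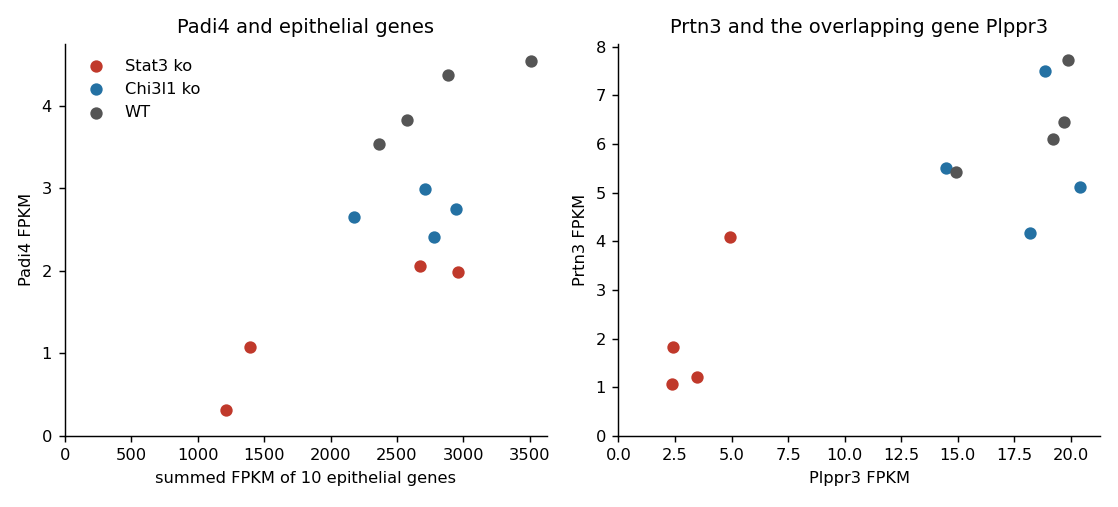
Left, Padi4 FPKM against the summed FPKM of 10 mammary epithelial genes; right, Prtn3 FPKM against Plppr3 FPKM; each point is 1 library, coloured by group. Stat3 ko 1 to 4 have 0.310, 1.08, 2.06 and 1.98 FPKM of Padi4 at epithelial sums of 1212, 1391, 2670 and 2958 FPKM. The part of epithelial content was not tested.

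Padi2, the deiminase with the broadest tissue range, did not pass the test in any comparison. It had 6.43, 8.12, 6.10 and 11.0 FPKM in Stat3 ko, 6.996, 9.99, 8.46 and 8.84 FPKM in Chi3l1 ko and 7.51, 11.2, 8.50 and 4.82 FPKM in WT. The ranges overlapped throughout, and the widest spread was within WT. The difference by limma was 0.0038 ± 0.22 for Stat3 ko against WT (adjusted p = 0.992) and 0.13 ± 0.22 for Chi3l1 ko against WT (adjusted p = 1.0), and the first turned negative under other scalings (-0.022 by edgeR, adjusted p = 0.96). Thbs4, which encodes a thrombospondin, was the gene most like it (r = 0.862, and 0.875 within the groups), then Snord32a (0.804 and 0.819). Snord32a, at 0 to 7 counts per library, was near the detection floor. Padi2 and Padi4, although neighbours in 1 cluster, had an r of 0.0495 over the 12 libraries.

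Padi1 and Padi3, which are known from skin and hair follicle, were under the filter, at 19 to 48 and 10 to 74 counts per library. Padi1 had 20, 21, 23 and 34 counts in Stat3 ko, 19, 34, 21 and 23 counts in Chi3l1 ko and 45, 42, 36 and 48 counts in WT. Its FPKM averaged 0.350 ± 0.0869 in Stat3 ko, 0.309 ± 0.0880 in Chi3l1 ko and 0.586 ± 0.0964 in WT (SD, n = 4 each). Neither knockout overlapped with WT. Among genes with a count, 5.84% were lower without overlap in Stat3 ko, and 1.07% were so in Chi3l1 ko. In a limma fit with no filter Padi1 differed by -0.23 ± 0.08 in Stat3 ko against WT (adjusted p = 0.117) and by -0.28 ± 0.08 in Chi3l1 ko against WT (unadjusted p = 0.00424, adjusted p = 1.0). The transcript Gm13032 overlaps Padi1 on the opposite strand and had at most 14 counts in a library. Keratinocyte and hair follicle genes summed to 38.8 and 69.3 FPKM in WT 1 and WT 3, against 1.56 to 3.30 FPKM in the other 10 libraries. Padi1 had 0.671, 0.500, 0.505 and 0.668 FPKM in WT 1 to 4. The part of keratinocyte content in the Padi1 values was not tested.

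Padi3 had 32, 10, 47 and 12 counts in Stat3 ko, 60, 55, 34 and 31 counts in Chi3l1 ko and 46, 44, 74 and 58 counts in WT. The groups overlapped, and the highest value, 1.13 FPKM, was in WT 3, which also had the highest keratinocyte sum. The part of keratinocyte content in the Padi3 values was not tested. Padi3 averaged 0.388 ± 0.252 FPKM in Stat3 ko, 0.605 ± 0.123 FPKM in Chi3l1 ko and 0.832 ± 0.236 FPKM in WT (SD, n = 4 each). In the limma fit with no filter the difference was -0.41 ± 0.14 for Stat3 ko against WT (adjusted p = 0.134) and -0.18 ± 0.14 for Chi3l1 ko against WT (adjusted p = 1.0).

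Prtn3, the gene of proteinase 3, fell in Stat3 ko and was the only granule gene of the set well above the detection floor. It had 4.09, 1.21, 1.07 and 1.83 FPKM in Stat3 ko, from 118, 38, 39 and 60 counts. It had 4.18, 5.51, 7.50 and 5.11 FPKM in Chi3l1 ko and 6.11, 5.42, 7.72 and 6.46 FPKM in WT. Every Stat3 ko library was under every library of the other groups, although Stat3 ko 1 came close to the lowest Chi3l1 ko library, and Chi3l1 ko and WT overlapped. The mean in Stat3 ko was 31.9% of the WT mean. Per 1000 FPKM of the epithelial genes, Prtn3 stood at 3.37, 0.874, 0.402 and 0.620 in Stat3 ko, 1.42 to 2.699 in Chi3l1 ko and 1.84 to 3.001 in WT, so that Stat3 ko 1 was then above every other library. By limma Prtn3 fell by 1.37 ± 0.26 in Stat3 ko against WT (log2, SE; adjusted p = 0.00859) and differed by -0.19 ± 0.26 in Chi3l1 ko against WT (adjusted p = 1.0). The authors' deposited table gave a log2 fold change of -1.65 for Stat3 ko with an adjusted p of 0.00252.

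Between the knockouts 1 of the 3 tested members was called by limma, beside 13.2% of all tested genes, 15.1% by edgeR, 20.0% by DESeq2 and 3.58% by limma with no filter. In Stat3 ko against Chi3l1 ko Prtn3 fell by 1.18 ± 0.26 (log2, SE; adjusted p = 0.0157), and 10.2% of tested genes were lower without overlap. The call ended in a fit of these groups alone (adjusted p = 0.0683, beside 3.70% of genes called) and without Chi3l1 ko 3 (adjusted p = 0.0514).

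The annotation of Prtn3 overlaps that of Plppr3, a phospholipid phosphatase related gene on the opposite strand (chr10:79860475-79874634). GENCODE lists 6 Prtn3 transcripts, of which 1 starts inside Plppr3, 5138 bases upstream of the transcript whose promoter is printed above. Plppr3 exons cover 159 of the 1732 Prtn3 exon bases (9.18%). Plppr3 fell in Stat3 ko as well, with 3.29 ± 1.19 FPKM in Stat3 ko, 17.98 ± 2.51 FPKM in Chi3l1 ko and 18.4 ± 2.35 FPKM in WT (SD, n = 4 each; limma log2 difference for Stat3 ko against WT -2.21 ± 0.18, adjusted p = 6.61e-05). Prtn3 and Plppr3 had an r of 0.913 over the 12 libraries and 0.635 within the groups. Gene totals do not say which Prtn3 transcript was counted, and whether counting used the strand is not given in the sources used here, so reads of the overlap cannot be told apart.

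The genes most like Prtn3 were Arhgef17, a guanine nucleotide exchange factor (r = 0.957, and 0.840 within the groups), Cutal (0.954 and 0.837) and Foxi1, a forkhead factor known from ionocytes (0.948 and 0.770). None of these 3 is on the neutrophil lists. Foxi1 had 11.4, 1.93, 1.68 and 2.85 FPKM in Stat3 ko, 25.0 to 60.6 FPKM in Chi3l1 ko and 25.5 to 66.3 FPKM in WT. Like Prtn3, it was highest among the Stat3 ko libraries in Stat3 ko 1. Padi4 and Prtn3, the members that fell together in Stat3 ko, had an r of 0.536 over 12 libraries and of -0.706 within the groups, and Stat3 ko 1 had the least Padi4 and the most Prtn3 of its group.

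Elane, the gene of neutrophil elastase, had its highest counts in Stat3 ko, where its neighbour Prtn3 was lowest. It had 17, 13, 5 and 6 counts in Stat3 ko 1 to 4, 2, 3, 1 and 1 counts in Chi3l1 ko and 4, 0, 1 and 2 counts in WT. Each Stat3 ko library was above every library of the other groups, by 1 count at the closest. Summed over a group and scaled to the gene counts of its libraries (CPM), this is 0.580 CPM in Stat3 ko (95% exact Poisson interval 0.416 to 0.787), 0.0886 in Chi3l1 ko (0.0356 to 0.183) and 0.0971 in WT (0.0390 to 0.200), where the intervals cover counting error only. Of all genes with a count, 6.60% were higher without overlap in Stat3 ko than in WT and 5.17% in Stat3 ko than in Chi3l1 ko.

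Whether Elane passed the test depended on the tool. The limma fit with no filter gave 0.50 ± 0.14 for Stat3 ko against WT (adjusted p = 0.0709), edgeR with no filter 2.53 (adjusted p = 0.0794) and DESeq2 2.63 ± 0.91 (adjusted p = 0.0239), and the authors' deposited table listed 2.62 with an adjusted p of 0.0404. The limma difference was 0.23 without the libraries over 2% mitochondrial counts (adjusted p = 0.17), which include Stat3 ko 1 and Stat3 ko 2, the highest for Elane. Without Stat3 ko 3 the adjusted p was 0.0372 and without Stat3 ko 4 it was 0.0328. Cfd, the adipocyte gene of complement factor D that lies 2638 bases beyond Elane, averaged 1372 ± 1489 FPKM in Stat3 ko, 224 ± 170 FPKM in Chi3l1 ko and 184 ± 116 FPKM in WT (SD, n = 4 each), and its highest library, at 3604 FPKM, was also Stat3 ko 1. The part of adipocyte content in the Elane counts was not tested.

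Mpo, Ctsg, Camp and Ngp were at or near the detection floor. Mpo, the gene of myeloperoxidase, had 1, 16, 3 and 3 counts in Stat3 ko, 1, 0, 10 and 0 counts in Chi3l1 ko and 0, 9, 0 and 0 counts in WT. One library in each group held most of its counts, and the groups overlapped. Ctsg, the gene of cathepsin G, had 1, 0, 2 and 4 counts in Stat3 ko, 3, 0, 0 and 0 counts in Chi3l1 ko and 0 counts in all 4 WT libraries, which is under the floor of 0.0416 CPM over the WT group (3 counts of the total), and the exact Poisson interval used for Elane reaches 0.0511 CPM here. Not more than 4 counts were seen in any library, and 8 of 12 libraries had none.

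Camp, the gene of the cathelicidin peptide, had 0, 17, 3 and 0 counts in Stat3 ko, 0, 0, 0 and 3 counts in Chi3l1 ko and 1, 0, 0 and 0 counts in WT. Ngp, the gene of neutrophilic granule protein, had 0, 25, 12 and 1 counts in Stat3 ko, 0, 0, 5 and 2 counts in Chi3l1 ko and 0, 5, 0 and 0 counts in WT. Stat3 ko 2 was the highest library for both, and both overlapped between the groups. In the limma fit with no filter, Stat3 ko against WT gave 0.08 ± 0.07 for Mpo (adjusted p = 0.527), 0.12 ± 0.05 for Ctsg (adjusted p = 0.223), 0.33 ± 0.22 for Camp (adjusted p = 0.416) and 0.37 ± 0.20 for Ngp (adjusted p = 0.322). Without Stat3 ko 2 the differences were 0.0574 for Camp and 0.1443 for Ngp. No difference of these genes passed the test at these counts and with this spread between libraries.

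Taken as a sum, the 5 granule genes near the floor had 19, 71, 25 and 14 counts in Stat3 ko 1 to 4, 6, 3, 16 and 6 counts in Chi3l1 ko and 5, 14, 1 and 2 counts in WT. Stat3 ko 2 held 71 of the 129 counts of its group, and the lowest Stat3 ko library equalled the highest WT library. Some neutrophil genes, but not all, were highest in the same library. Cxcr2, the receptor for neutrophil chemokines, had 0.0590, 3.03, 1.66 and 0.0695 FPKM in Stat3 ko 1 to 4, 0.0264 to 0.0658 FPKM in Chi3l1 ko and 0.0514 to 0.132 FPKM in WT. S100a9, a calcium-binding protein abundant in neutrophils, had 0.460, 20.2, 2.65 and 0.507 FPKM in Stat3 ko, 0.616 to 1.63 FPKM in Chi3l1 ko and 0.501 to 1.97 FPKM in WT. Both were named after their values were seen. S100a8 had 1.30, 11.1, 3.09 and 1.98 FPKM in Stat3 ko 1 to 4, so it too was highest of its group in Stat3 ko 2. Unlike Cxcr2 and S100a9, it was there still under all Chi3l1 ko and WT libraries (23.7 to 32.1 FPKM). The sum of the defining neutrophil markers in Stat3 ko 2, 11.5 FPKM, lay within the WT range. That sum holds Cxcr2, higher there than in any WT library, and Cd177, which averaged 1.80 FPKM in Stat3 ko and 6.87 FPKM in WT. From which cells the S100a8 and Cd177 transcripts came was not tested.

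**Figure D3:**
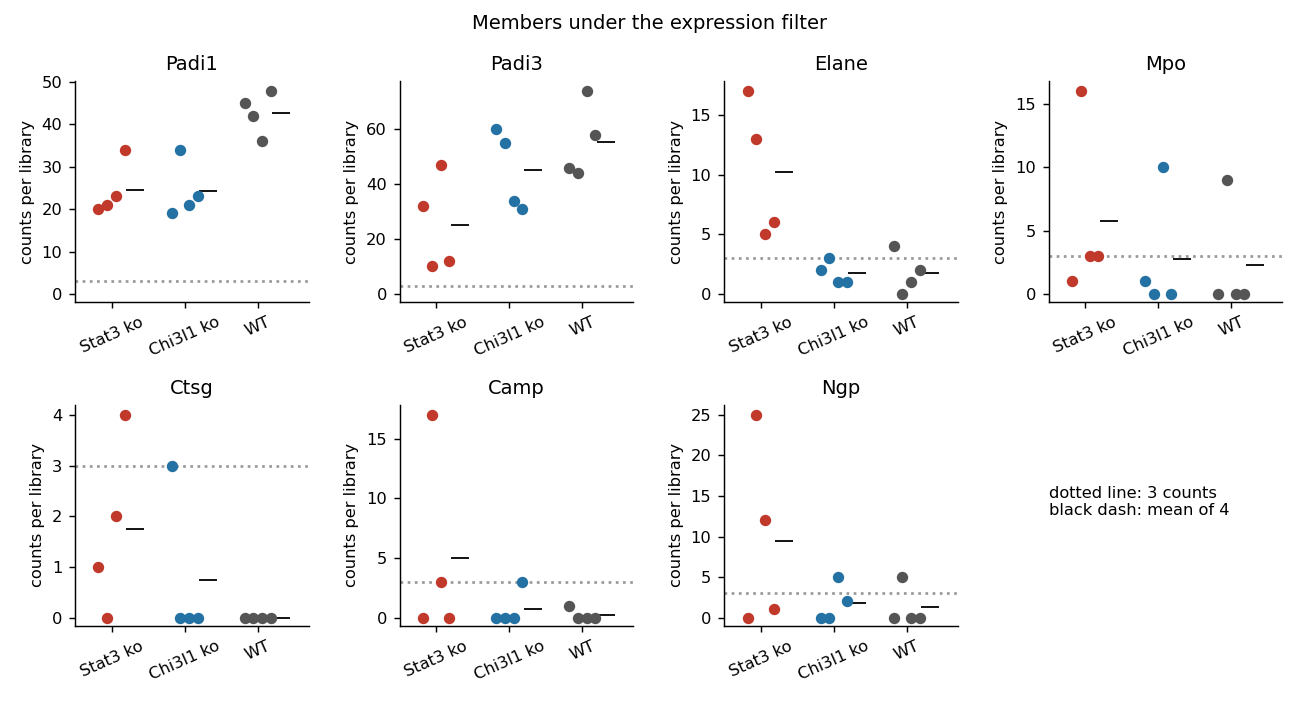
Counts per library of the 7 members under the filter; points are libraries, the dash is the mean of 4 and the dotted line marks 3 counts. Elane has 5 to 17 counts in Stat3 ko, 1 to 3 in Chi3l1 ko and 0 to 4 in WT, and single libraries carry most counts of Mpo, Camp and Ngp.

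In Chi3l1 ko against WT, 0 of the 3 tested members were called by limma, beside 0.00733% of all tested genes (1 gene, Chil1, lower). None of the 3 had an unadjusted p under 0.05. In the limma fit with no filter (0.00320% of genes called), edgeR (0.00608%) and DESeq2 (0.0357%), 0 members were called and 1 (Padi1) had an unadjusted p under 0.05. In the limma fit of Chi3l1 ko and WT alone 0 were called and Padi4 had an unadjusted p under 0.05. A missed threshold does not show that the members were alike in the groups.

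**Figure D4:**
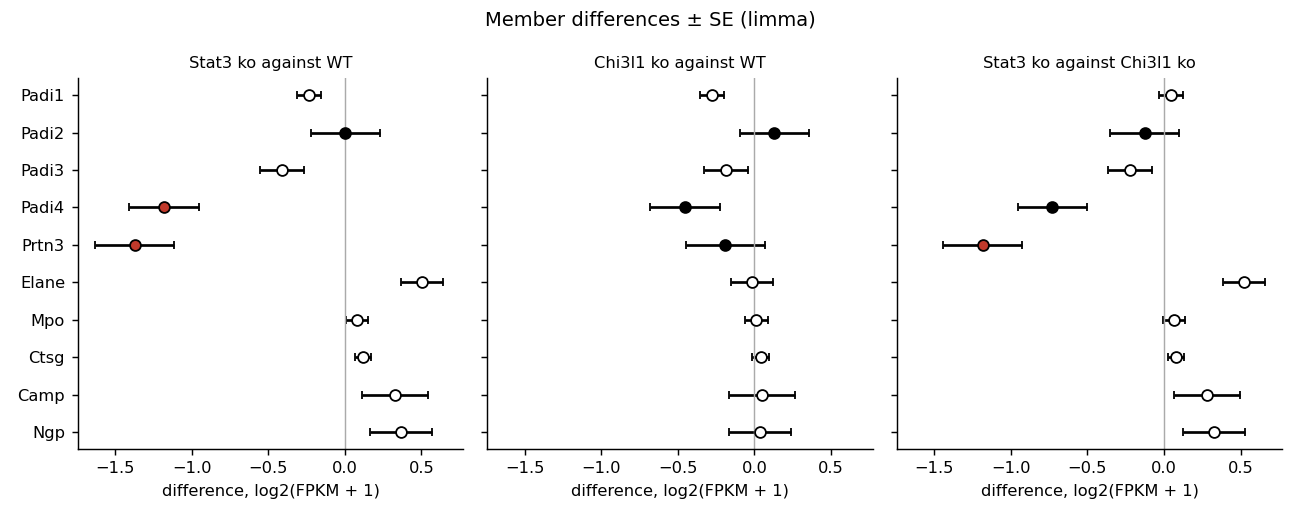
Difference of each member on the log2(FPKM + 1) scale with its limma SE, for Stat3 ko against WT, Chi3l1 ko against WT and Stat3 ko against Chi3l1 ko. Red points are called, black points were tested and not called, and open points are members under the filter, from the fit with no filter. Padi4 and Prtn3 lie at -1.18 and -1.37 for Stat3 ko against WT.

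In the wider machinery of NET formation, some but not all genes of the NADPH oxidase rose in Stat3 ko, as did the adhesion genes Itgb2 and Selplg. Of 16 genes on that list, all tested, 9 rose and 1 fell in Stat3 ko against WT by limma, beside 5.61% of all tested genes called higher and 8.39% called lower, with a median difference of 0.61 (-0.02 over all tested genes). Itgb2, the beta chain of the leukocyte integrins, rose by 1.04 ± 0.19 (log2, SE; adjusted p = 0.00737), with 33.3 ± 8.06 FPKM in Stat3 ko and 15.7 ± 3.73 FPKM in WT (SD, n = 4 each). Selplg, the ligand of P-selectin, rose by 1.22 ± 0.24 (adjusted p = 0.0111). Ncf4, a subunit of the phagocyte NADPH oxidase, rose by 0.89 ± 0.21 (adjusted p = 0.0206). Others that rose included Rac2 and Cybb of the same oxidase, the pore former Gsdmd and the kinase Ripk3. Cyba, a further gene of that oxidase, did not pass (0.41 ± 0.25, limma adjusted p = 0.271). Tlr4, a receptor for endotoxin, fell by 0.57 ± 0.15 (adjusted p = 0.033).

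These counts rested on single libraries and on the fit. Without WT 1, WT 3 or WT 4 each, 2 rose and 0 fell, and without Stat3 ko 2, Chi3l1 ko 1, Chi3l1 ko 3 or Stat3 ko 3 there were 3, 4, 5 and 5 that rose. A fit of Stat3 ko and WT alone left 1 that rose, and no filter left 3. Itgb2 and Selplg kept their call without any 1 library, and Tlr4 lost it without Stat3 ko 2, Chi3l1 ko 1 or any 1 WT library. Macrophages and monocytes also carry most of these genes, and 3 of 8 macrophage genes and 2 of 5 tested monocyte genes rose in Stat3 ko against WT, while the others did not pass. The summed macrophage list overlapped, at 612 to 1099 FPKM in Stat3 ko, 426 to 685 FPKM in Chi3l1 ko and 406 to 812 FPKM in WT. The summed monocyte list was 44.3 to 68.1 FPKM in Stat3 ko, 16.3 to 23.9 FPKM in Chi3l1 ko and 15.7 to 28.2 FPKM in WT. Without WT 1 or WT 4, 0 genes of either marker list rose. The summed NET formation list was 227, 466, 364 and 316 FPKM in Stat3 ko 1 to 4. The summed B cell list was 10.1, 358, 123 and 0.719 FPKM in these libraries and 0.440 to 3.15 FPKM in WT. The summed T cell list was 18.8, 120, 70.5 and 12.2 FPKM in Stat3 ko 1 to 4 and 6.93 to 16.6 FPKM in WT. The part of macrophages, monocytes, B cells and T cells was not tested. In Chi3l1 ko against WT none of the 16 genes was called.

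**Figure D5:**
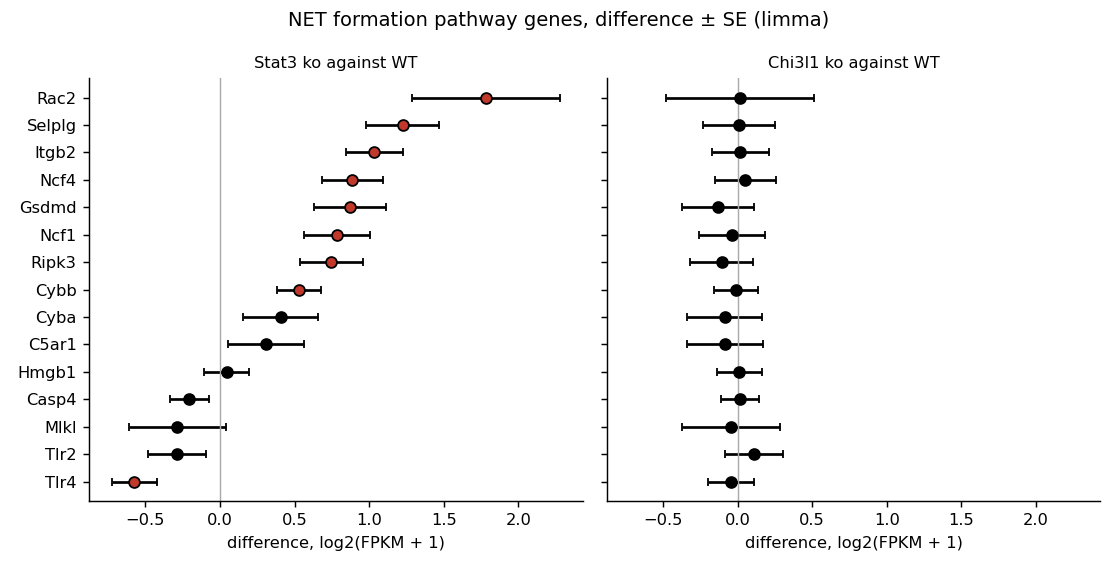
Difference of genes of the NET formation list on the log2(FPKM + 1) scale with limma SE, for Stat3 ko against WT (left) and Chi3l1 ko against WT (right); red points are called, and 1 gene of the list is not shown. For Stat3 ko against WT, Itgb2 lies at 1.04 and Tlr4 at -0.57, and in Chi3l1 ko none was called.

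Neutrophil and granule genes outside the set split in direction in Stat3 ko against WT. Among all tested genes, limma called 5.61% higher and 8.39% lower in that comparison. Of 9 tested neutrophil identity genes, 2 rose (Mmp9, a gelatinase, and Itgam, an integrin chain) and 2 fell (S100a8 and Cd177, a neutrophil surface protein). S100a8 fell by 2.81 ± 0.40 (log2, SE; limma adjusted p = 0.00209), with 4.36 ± 4.54 FPKM in Stat3 ko and 29.3 ± 2.78 FPKM in WT. Cd177 fell by 1.54 ± 0.26 (adjusted p = 0.00567). In WT, S100a9 averaged 0.953 FPKM and Ly6g 0.0149 FPKM, and the cell source of S100a8 and Cd177 was not tested. Of 7 tested genes for specific and gelatinase granules, which share Cd177 and Mmp9 with that list, 1 rose and 2 fell. Lcn2, a siderophore-binding protein that epithelium also makes, fell by 3.12 ± 0.31 (adjusted p = 0.00019), with 170 ± 84.9 FPKM in Stat3 ko and 1339 ± 87.6 FPKM in WT (SD, n = 4 each). Mmp9, at 1.61 ± 0.572 FPKM in Stat3 ko and 0.432 ± 0.274 FPKM in WT, passed the filter through the Stat3 ko libraries and was under it when any of them was left out. Without WT 1 or WT 4, 0 genes of either list rose, and for the identity list also without Stat3 ko 2, while S100a8, Cd177 and Lcn2 were called without any 1 library. Of the precursor list, Myb was the 1 of 2 tested genes that rose, by 0.54 ± 0.12 (adjusted p = 0.0158), and like Mmp9 it was under the filter when any Stat3 ko library was left out.

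Some serine protease inhibitor genes rose in Stat3 ko. Of 6 tested serine protease inhibitor genes, 3 rose and 0 fell against WT, beside 5.61% of all tested genes called higher and 8.39% lower. The median difference of the 6 was 1.24 (-0.02 over all tested genes). Slpi, the secretory inhibitor of elastase and cathepsin G, rose by 1.21 ± 0.26 (log2, SE; limma adjusted p = 0.0149), with 36.1 ± 11.7 FPKM in Stat3 ko and 15.0 ± 4.66 FPKM in WT (SD, n = 4 each). Serpinb6b rose by 1.19 ± 0.28 (adjusted p = 0.0214) and Serpina1b, of the antitrypsin family, by 1.97 ± 0.52 (adjusted p = 0.031). Serpina3n (limma adjusted p = 0.0581), Serpinb1a (0.0877) and Serpinb6a (0.238) did not pass. Slpi was called without any 1 library but not without the 3 libraries over 2% mitochondrial counts (adjusted p = 0.0552), Serpinb6b was not called without WT 1 or WT 4, and Serpina1b was not called without Stat3 ko 2, Stat3 ko 3 or any 1 WT library. Serpina1b has near-identical copies beside it in the mouse, so its reads may be split with theirs. In the fit of Stat3 ko and WT alone 0 were called.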

How the data were processed

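The authors deposited FPKM per gene for 12 libraries, with gene lengths and coordinates, and comparison tables with counts, log2 fold changes and p-values, as the deposited files show. Tools named in the submitters' processing notes are limma, edgeR, HTSeq, STAR and Trimmomatic, and the builds are mm10 and GRCm38. The signal values in the deposited comparison tables are the authors' counts divided by a size factor per library, and served only as a check. Those deposited comparison tables list only genes with an unadjusted p under 0.05. FPKM times gene length and 1 total per library gave whole counts for 100.0% of values (tolerance 0.001), and 0 of 55832 deposited counts differed.

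limma 3.58.1 with an intensity trend (R 4.3.3) was fitted to log2(FPKM + 1) over the 3 group means, two-sided, for genes that reach 1 FPKM in 4 or more libraries. A fold change on this scale understates the change of low genes. Members under that filter have adjusted p-values from a fit of all 31268 genes with a count. Tests run on whole counts were edgeR 4.0.16 with quasi-likelihood and TMM, and DESeq2 1.42.0. Other settings were a pseudocount of 0.1, median-of-ratios scaling, no filter, the compared groups alone, each library left out, and the libraries over 2% mitochondrial counts left out. The fits were tested on simulated data. Samples were grouped by genotype label. Tables used pandas 2.3.3, scipy 1.17.1 and numpy 2.4.6 under Python 3.11.15.

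The members and gene lists were chosen with earlier results of these data known. Genes named outside the members are the targeted genes, up to 3 called genes with the lowest adjusted p of each list, the nearest protein-coding neighbours and up to 3 genes most correlated with each tested member; some genes that this rule or a list holds are not reported here. Outside that rule, Cxcr2, S100a9, Ly6g, Tlr4, Itgam, Gsdmd, Ripk3 and Gm13032 were named after their values were seen. So were Serpina3n, Serpinb1a, Serpinb6a and the further NADPH oxidase genes, and the motif GAGGAA was picked after the sequences were read. All 10 members matched a RefSeq promoter, and their coordinates matched GENCODE vM21.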

Additional observations from a re-analysis of the deposited data

Results flagged for a closer look

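Among 29 groups of 4 libraries of the members, 9 had 1 library far from the other 3 by Dixon's criterion. Its chance rate of about 1 in 20 is for continuous, normally spread values and cannot be set against these counts. Where 3 libraries are at 0, any count in the remaining library is set apart. Most of the 9 rest on a few counts. Padi1 was set apart in Stat3 ko 4 at 0.479 FPKM (34 counts). Mpo was set apart in Stat3 ko 2 at 0.259 FPKM (16 counts), in Chi3l1 ko 3 at 0.146 FPKM (10 counts) and in WT 2 at 0.118 FPKM (9 counts). Ctsg was set apart in Chi3l1 ko 1 at 0.117 FPKM (3 counts). Camp was set apart in Stat3 ko 2 at 1.24 FPKM (17 counts), in Chi3l1 ko 4 at 0.222 FPKM (3 counts) and in WT 1 at 0.0738 FPKM (1 count). Ngp was set apart in WT 2 at 0.183 FPKM (5 counts), the library that was also apart for Mpo.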

How the results depend on the processing

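Padi4 and Prtn3 kept their direction in Stat3 ko against WT under every setting. The members called there numbered 2, with 1 in the fit of the compared groups only, 3 by DESeq2 (with Elane) and 2 with each library left out. All genes called in that comparison numbered 1911, and 1149 with no filter, 506 in the compared groups only, 1214 without the libraries over 2% mitochondrial counts, 2955 by edgeR, 4392 by DESeq2 and 569 (without WT 1) to 3218 (without Stat3 ko 4) with 1 library left out. The share of calls that were higher also moved, to 1644 of 2955 by edgeR and 2702 of 4392 by DESeq2 against 766 of 1911. In Chi3l1 ko against WT, 1 gene was called and 7 by DESeq2, with 1 to 1 when a library was left out and 0 to 0 members. In Stat3 ko against Chi3l1 ko, 1799 genes were called, with 1119 under no filter, 505 in the compared groups only, 4051 by DESeq2 and 608 to 2853 with a library left out. The member called there was 1, with 0 in the compared groups only, 2 by DESeq2 (Elane besides Prtn3) and 0 to 2 with a library left out. Signs turned only for small differences. Padi2 in Stat3 ko against WT was -0.0002747 with median-of-ratios scaling, -0.022 by edgeR and -0.0216 by DESeq2. Without the libraries over 2% mitochondrial counts, Stat3 ko against Chi3l1 ko was 0.0278 for Padi2 and -0.0091 for Mpo. With 1 library left out, Stat3 ko against WT ran from -0.1896 to 0.1649 for Padi2. Chi3l1 ko against WT then ran from -0.0643 to 0.2902 for Padi2, -0.0594 to 0.0392 for Elane, -0.0345 to 0.0535 for Mpo, -0.0257 to 0.0722 for Camp and -0.0184 to 0.0989 for Ngp. Stat3 ko against Chi3l1 ko ran from -2.124e-05 to 0.081 for Padi1 and -0.0037 to 0.1147 for Mpo. The cause of these changes was not tested. No paired analysis was possible because the labels give no replicate numbers that pair samples across groups. Mpo, Ctsg, Camp and Ngp are limited by few counts and by the spread between libraries.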

Other observations

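The markers of other cells moved unevenly in Stat3 ko against WT, where limma called 5.61% of all tested genes higher and 8.39% lower. Adipocyte genes rose in 4 of 6 cases by limma, with the lowest adjusted p for Cfd (2.60 ± 0.66 on the log2 scale, adjusted p = 0.0284), and their sum reached 7588 FPKM in Stat3 ko 1, where the other Stat3 ko libraries held 839 to 1082 FPKM. Without WT 1, WT 3 or WT 4, 0 of them were called. Mast cell genes, which include proteases of the same superfamily as Ctsg, summed to 25.7 to 103 FPKM in Stat3 ko, 5.44 to 18.7 FPKM in Chi3l1 ko and 5.75 to 36.8 FPKM in WT. Of 5 tested mast cell genes 1 (Tpsab1) rose against WT and 4 rose against Chi3l1 ko, beside 13.2% of all tested genes called there in either direction. That count was 0 without Chi3l1 ko 1, 1 without Chi3l1 ko 3 or Chi3l1 ko 4, 2 without Stat3 ko 1 or Stat3 ko 2, and 1 without the libraries over 2% mitochondrial counts. The call of Tpsab1 against WT was lost in 8 of the 12 fits with a library left out.

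Genes for handling granule proteins, 7 in all and all tested, had 0 calls in Stat3 ko against WT (4 without Stat3 ko 4), as did the 1 tested NET-clearing nuclease and the 2 tested B cell genes. Of 2 tested genes of the oestrogen and progesterone receptor list, Areg rose (1.96 ± 0.56, limma adjusted p = 0.0394), a call lost in 10 of the 12 fits with a library left out. Among the 5 T cell genes Cd8a rose, and lost its call in 9 of those 12 fits, while all 5 rose without Stat3 ko 4. Of 10 epithelial genes Elf3 fell, and the call was lost without WT 1 or WT 4, while 6 fell without Stat3 ko 4 and 4 without Stat3 ko 3. None of the 5 eosinophil genes passed the filter, and the 1 tested keratinocyte gene was not called. In Chi3l1 ko against WT, 0 genes of any list were called.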
